A study of Mus musculus with 16 samples.

Results

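The 9 genes of gland host defence proteins, Dmbt1, Pigr, Muc5b, Ltf, Lcn2, Lyz1, Lyz2, Reg3g and Slpi, were examined in the vomeronasal organ (VNO) of mice. The genes were taken by symbol as antimicrobial and mucosal proteins of the nasal glands, and all 9 were found among the 24340 genes listed with both counts and RPKM (reads scaled by gene length and library size). The RNA came from 12-week-old mice of generation 88 of a breeding experiment on the Hsd:ICR background. High Runner (HR) lines 3, 6, 7 and 8 had been bred for voluntary wheel running, and Control lines 1, 2, 4 and 5 had been bred without that selection. Each line gave 1 pool of VNOs from 3 males and 1 pool from 3 females, which makes 16 libraries and 4 lines for each linetype. A line is 1 breeding population, so the line and not the pool is the replicate of selection. Pools of 3 animals hide the variation between single mice.

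The VNO is a chemosensory organ in the nasal septum with a lumen that is kept filled by secretion from glands of the nose. Nasal glands secrete odorant- and pheromone-binding lipocalins together with proteins that bind, starve or lyse bacteria. Dmbt1 is a scavenger-receptor glycoprotein that binds microbes, Pigr carries polymeric antibodies across epithelium, and Muc5b is a gel-forming mucin. Ltf (lactoferrin) binds iron and Lcn2 binds the siderophores with which bacteria take up iron. Lyz1 and Lyz2 are lysozymes that cut the bacterial cell wall, Reg3g is a lectin that acts on Gram-positive bacteria, and Slpi inhibits leukocyte proteases. Lcn2 and Lyz2 are also made by neutrophils and macrophages.

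The genes lie on 6 chromosomes of GRCm38, by the GENCODE annotation. Dmbt1 (chr7:131032053-131121630, plus strand) and Muc5b (chr7:141839070-141873084, plus strand) share chromosome 7. Lcn2 (chr2:32384633-32388252, minus strand) and Slpi (chr2:164354070-164389095, minus strand) lie far apart on chromosome 2. Pigr is at chr1:130826684-130852249 (plus strand), Ltf at chr9:111019271-111042767 (plus strand) and Reg3g at chr6:78466269-78468872 (minus strand). All are protein-coding genes, and each value is 1 total for the whole gene. Dmbt1 overlaps Fgfr2 on the opposite strand and Slpi overlaps the microRNA gene Mir7678, and whether the counting used the strand is not given in the sources used here.

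Lyz1 (chr10:117287797-117292868, minus strand) and Lyz2 (chr10:117277331-117282321, minus strand) are neighbours and near copies. Of the 75-base stretches of their transcripts, 93.8% in Lyz1 and 94% in Lyz2 occur in no other gene, and 74 are shared between them. Reads from the shared stretches have more than 1 location and were dropped, so the counts rest on the remaining sequence. The 130 bases before each start, from RefSeq (GRCm38.p6), are printed because the genes had very unequal levels. Capitals mark the bases that differ at the same distance from the start, and each sequence runs 5′ to 3′ on the minus strand, at chr10:117292869-117292998 for Lyz1 and chr10:117282273-117282402 for Lyz2.
Lyz1: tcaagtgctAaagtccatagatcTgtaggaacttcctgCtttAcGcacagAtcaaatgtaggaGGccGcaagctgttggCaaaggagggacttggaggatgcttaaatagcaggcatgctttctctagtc
Lyz2: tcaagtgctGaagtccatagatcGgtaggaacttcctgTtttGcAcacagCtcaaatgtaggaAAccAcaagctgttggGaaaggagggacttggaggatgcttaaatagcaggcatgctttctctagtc
The windows differ at 10 of 130 bases (92.3% identical) and at 4 of the 75 bases nearest the start. Mean RPKM over the 16 libraries was 138 for Lyz2 and 5.51 for Lyz1.

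The upstream windows of the iron-binding proteins Ltf and Lcn2 are shown because these genes, alike in role, varied differently between libraries. Each holds the 250 bases before the start from RefSeq (GRCm38.p6), at chr9:111019042-111019291 on the plus strand for Ltf and chr2:32387740-32387989 on the minus strand for Lcn2. RefSeq and GENCODE place some starts differently. The Lcn2 window lies wholly inside the GENCODE extent of the gene given above, the ends of the Ltf and Lyz2 windows nearest the start reach into theirs, and the Lyz1 window does not. Capitals mark matches, on either strand, to the letters AGATAA known from the sites of GATA factors and to the letters AGGAAG known from the sites of ETS factors. The letters TATAAA of the TATA box were searched as well and are in neither window.
Ltf: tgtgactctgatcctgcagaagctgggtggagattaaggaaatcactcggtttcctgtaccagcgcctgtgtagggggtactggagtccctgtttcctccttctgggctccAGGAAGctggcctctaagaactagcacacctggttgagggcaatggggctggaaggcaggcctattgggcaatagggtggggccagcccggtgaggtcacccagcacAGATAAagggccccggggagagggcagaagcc
Lcn2: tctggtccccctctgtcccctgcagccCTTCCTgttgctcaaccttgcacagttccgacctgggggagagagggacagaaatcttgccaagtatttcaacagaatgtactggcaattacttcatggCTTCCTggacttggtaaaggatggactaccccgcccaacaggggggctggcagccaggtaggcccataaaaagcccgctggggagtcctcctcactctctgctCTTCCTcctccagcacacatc
A window was found for 7 of the 9 genes, all but Dmbt1 and Muc5b. AGGAAG occurred in the windows of Lcn2, Ltf, Lyz1, Lyz2 and Reg3g, 5 of 7, and in 29.5% of the 32851 promoter windows of the same length. The near copies Lyz1 and Lyz2 hold a match at the same distance from the start, so their windows are not independent. AGATAA occurred in Ltf alone among the 7 (9.99% of all windows) and TATAAA in Reg3g alone (12.4% of all windows). These matches describe the letters of the windows and nothing more.

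Counts on genes ranged from 15998552 to 70875276 per library, with a median of 37366329. The neuronal markers Omp (716 to 1406 RPKM) and Gnai2 (362 to 761 RPKM) were expressed in every library. Both go with the tissue label, but no other nasal tissue was sampled for comparison. Trpc2, the channel of vomeronasal neurons, had 259 to 417 RPKM, but the count tables list it at 0 in every library. RPKM were normalized separately for males and females, so means over all 16 libraries join 2 tables. Libraries differed widely in gland content. The summed CPM (counts scaled to library size) of 19 nasal gland secretory genes, none of them among the 9 genes described here, ran from 2456 in the HR line 8 female pool to 179769 in the Control line 5 male pool, a 73.2-fold range. The summed CPM of 4 vomeronasal neuron genes with counts ran from 2312 to 4541. In bulk RNA, fewer gland cells in a pool and less RNA from each cell cannot be told apart.

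Per gene length, Dmbt1 and Ltf were the most abundant of the 9 genes. Mean RPKM (± SD over 16 libraries) was 1945 ± 1800 for Dmbt1 and 1130 ± 768 for Ltf. Together they held between 63.4% and 97.7% of the counts of the 9 genes, and the 9 genes held between 0.147% and 3.73% of all counts on genes. Reg3g (309 ± 271 RPKM), Lyz2 (138 ± 130 RPKM) and Pigr (110 ± 41.9 RPKM) formed the middle of the order. Lcn2 followed at 36 ± 18 RPKM. Lyz1 (5.51 ± 14.9 RPKM), Muc5b (2.21 ± 2.15 RPKM) and Slpi (1.78 ± 0.997 RPKM) were the lowest.
Several neighbours in this order changed places between libraries. Ltf exceeded Reg3g, and Pigr exceeded Lcn2, in 16 of 16 libraries. Dmbt1 exceeded Ltf in 11 of 16, Reg3g exceeded Lyz2 in 12 of 16 and Lyz2 exceeded Pigr in 8 of 16. Lcn2 exceeded Lyz1 in 15 of 16, while Lyz1 exceeded Muc5b in 7 of 16 and Muc5b exceeded Slpi in 6 of 16. The mean of Lyz1 was set by 1 library, and its median was 0.979 RPKM.

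Dmbt1 varied 94.2-fold between libraries. In Control males it stood at 1532 CPM in line 1, 4631 in line 2, 12961 in line 4 and 28613 in line 5. In HR males it stood at 28756 CPM in line 3, 23029 in line 6, 2114 in line 7 and 2016 in line 8. The highest males thus came from both linetypes, and the lowest ones too. In Control females Dmbt1 stood at 10303 CPM in line 1, 3309 in line 2, 3926 in line 4 and 30250 in line 5. In HR females it stood at 15020 CPM in line 3, 20316 in line 6, 1919 in line 7 and 321 in line 8. Lines 5, 3 and 6 were the 3 highest in both sexes.

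Ltf followed the same pattern over a narrower range of 11.6-fold. In males it stood at 535, 1759, 4354 and 4141 CPM in Control lines 1, 2, 4 and 5, and at 5553, 5704, 922 and 1409 CPM in HR lines 3, 6, 7 and 8. In females the values were 2993, 1399, 1391 and 6188 CPM in the Control lines and 3741, 4261, 924 and 568 CPM in the HR lines, in the same order. Lines 7 and 8 were low in both sexes, and line 1 was low in males only. Over the 16 libraries, after the mean of each sex was removed, log2 CPM of Ltf and Dmbt1 correlated with r = 0.96. This and the correlations that follow are descriptions, since the pools of a line are related and the libraries share their gland content.

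**Figure D1:**
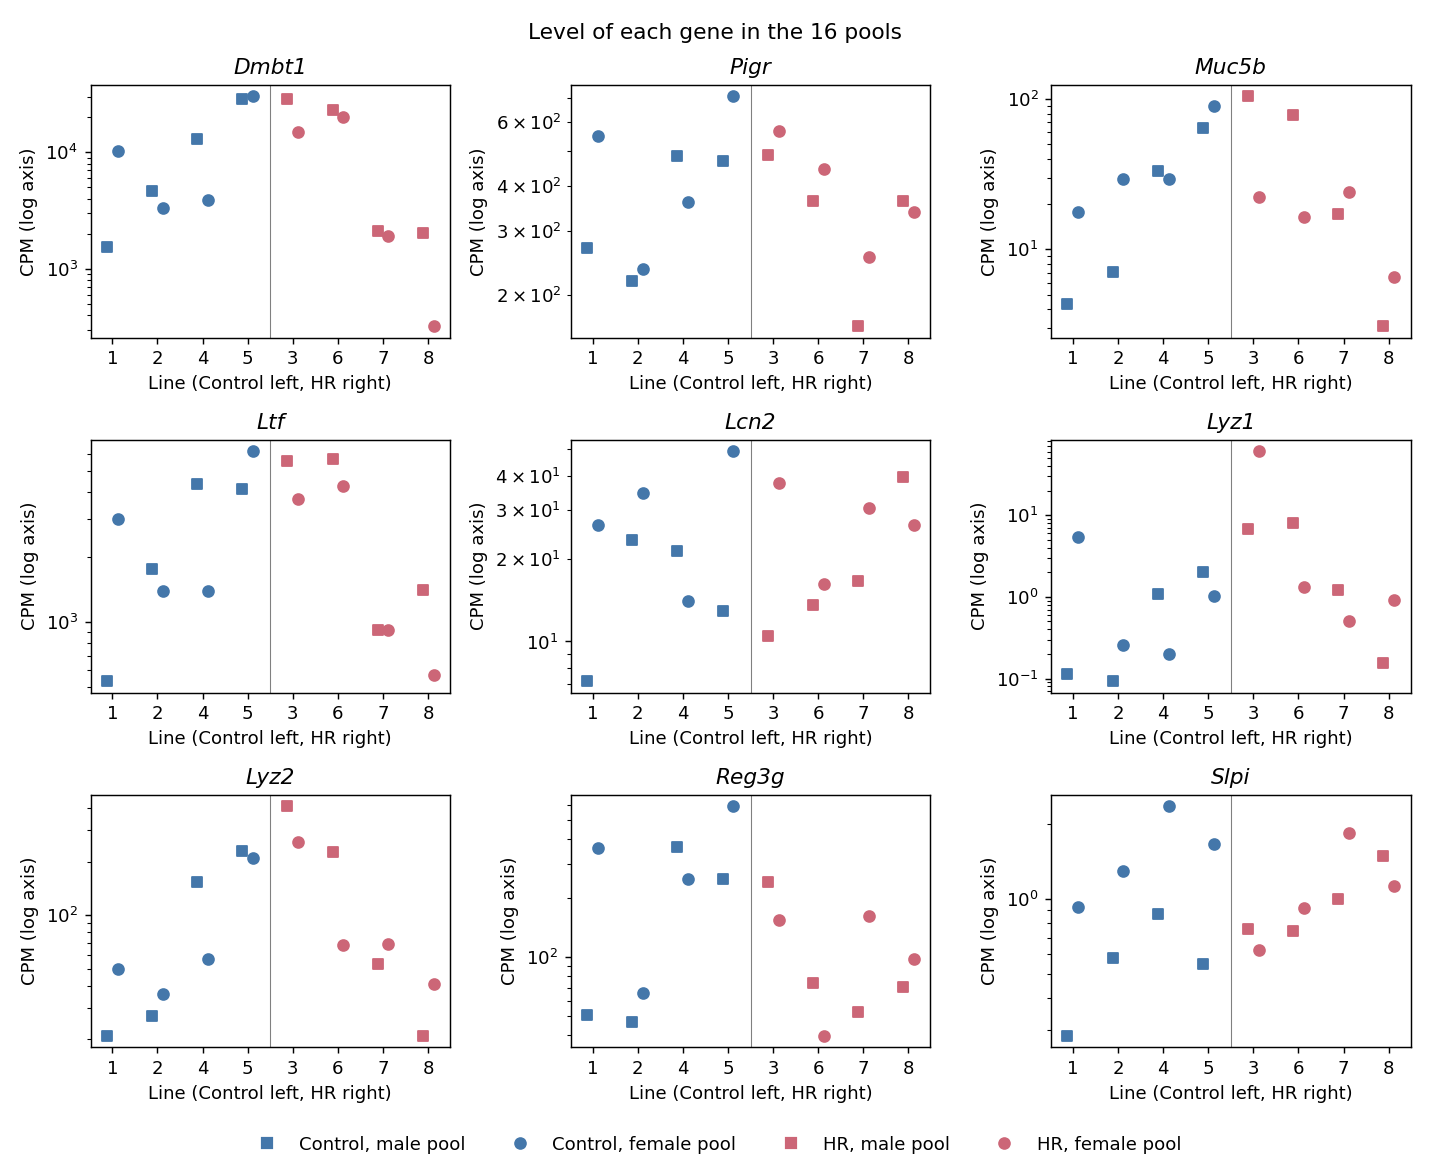
Level of each of the 9 genes in CPM (log axis) in the male pool (square) and female pool (circle) of every line, with Control lines on the left and HR lines on the right of each panel. Dmbt1 ranged from 321 to 30250 CPM, with Control line 5 and HR lines 3 and 6 at the top in both sexes, whereas Pigr stayed between 164 and 705 CPM.

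Pigr and Muc5b, the antibody carrier and the mucin, differed in how far they varied. Pigr was the steadiest of the 9 genes, with a lowest value of 164 CPM (HR line 7 male), a median of 363 and a highest value of 705 (Control line 5 female), a 4.3-fold range. Muc5b ran from 3.08 CPM (HR line 8 male) through a median of 23.1 to 104 CPM (HR line 3 male), a 33.7-fold range. In HR line 3 Muc5b stood at 104 CPM in males and 22.2 in females, and in HR line 6 at 78.4 in males and 16.4 in females. The high HR values of Muc5b were therefore in the male pools only.

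The lysozymes differed in range as well as level. Lyz2 ran from 20.9 CPM (HR line 8 male) through a median of 62.1 to 411 CPM (HR line 3 male), 19.7-fold. Lines 5 and 3 were high for Lyz2 in both sexes, with 230 and 210 CPM in the male and female pools of line 5 and 411 and 260 CPM in those of line 3. The summed CPM of 11 macrophage markers ran from 94.8 to 145 in Control males, 107 to 140 in Control females, 90.5 to 152 in HR males and 95.9 to 131 in HR females, and none was at 0. Its lowest and highest libraries were those of Lyz2, and its part in the range of Lyz2 was not tested.
Lyz1 had the widest range of the 9 genes, 650-fold. Control males held 0.113, 0.0932, 1.08 and 2.01 CPM in lines 1, 2, 4 and 5, and Control females 5.41, 0.258, 0.202 and 1.02 CPM. HR males held 6.83, 7.94, 1.22 and 0.155 CPM in lines 3, 6, 7 and 8, and HR females 60.6, 1.31, 0.505 and 0.915 CPM. The HR line 3 female pool, with 1651 counts, stood far above all others, and the lowest libraries held 5 counts.

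Reg3g ran from 39.7 CPM (HR line 6 female) through a median of 126 to 589 CPM (Control line 5 female). Control males held 50.8, 47, 366 and 250 CPM in lines 1, 2, 4 and 5, and Control females 360, 66.1, 250 and 589 CPM. HR males held 243, 73.7, 52.5 and 70.7 CPM in lines 3, 6, 7 and 8, and HR females 154, 39.7, 163 and 97.5 CPM. No HR pool reached the values of either pool of Control lines 4 and 5 or of the Control line 1 female pool. Lines 3 and 6, which were alike for Dmbt1, were far apart for Reg3g.

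Lcn2 and Slpi had another order of libraries. Lcn2 ran from 7.18 CPM (Control line 1 male) through a median of 22.4 to 49.1 CPM (Control line 5 female), and the HR line 8 male pool, among the lowest for Dmbt1, was second highest for Lcn2 at 39.7 CPM. Slpi ran from 0.283 to 2.35 CPM, which were 14 to 93 counts per library. At these counts the sampling of reads adds to the spread of Slpi. The summed CPM of 12 neutrophil markers ran from 34.3 to 56 in Control males, 45.6 to 63.2 in Control females, 35 to 81 in HR males and 46.8 to 74.2 in HR females. Of these 12 markers, 5 (Ngp, Camp, Mpo, Elane and Mmp8) had 0 counts in at least 1 library and at most 23 counts in any. The other 7 had counts in every library, from 2 to 31 for Retnlg and 16 to 100 for the granule protease gene Prtn3 up to 110 to 530 for Csf3r and 548 to 3055 for Mmp9. In CPM, Mmp9 reached 70.7, and the next highest of these markers, Csf3r, reached 9.54. The part of neutrophils in the range of Lcn2 was not tested.

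The male and female pool of a line were compared on log2 CPM, where a difference of 1 is a doubling. For Dmbt1 the median absolute difference between the pools was 0.71, set beside a range of 5.19 (36.6-fold) over the 8 line means. The pools were within 1 in 5 of 8 lines. The exceptions were line 1, where the female pool was 6.73-fold higher, line 8, where the male pool was 6.28-fold higher, and line 4, where the male pool was 3.3-fold higher. For Ltf the median difference was 0.57, beside a range of 2.5 over the line means, and line 1 again differed most (5.6-fold higher in the female pool). Pigr differed by a median of 0.35 and by less than 1 in 7 of 8 lines, with line means that spanned 1.49.
The pools of a line were less alike for Lyz1 and Muc5b. The median absolute difference was 2.2 for Lyz1, with 1 of 8 lines within 1, and 1.55 for Muc5b, with 3 of 8 lines within 1. It was 0.82 for Lyz2, 0.78 for Reg3g, 0.74 for Lcn2 and 0.97 for Slpi. For Lcn2 and Slpi the line means spanned only 1.23 and 1.38, close to the differences between the pools of a line. The female pool of line 1 was the higher in all 9 genes.

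**Figure D2:**
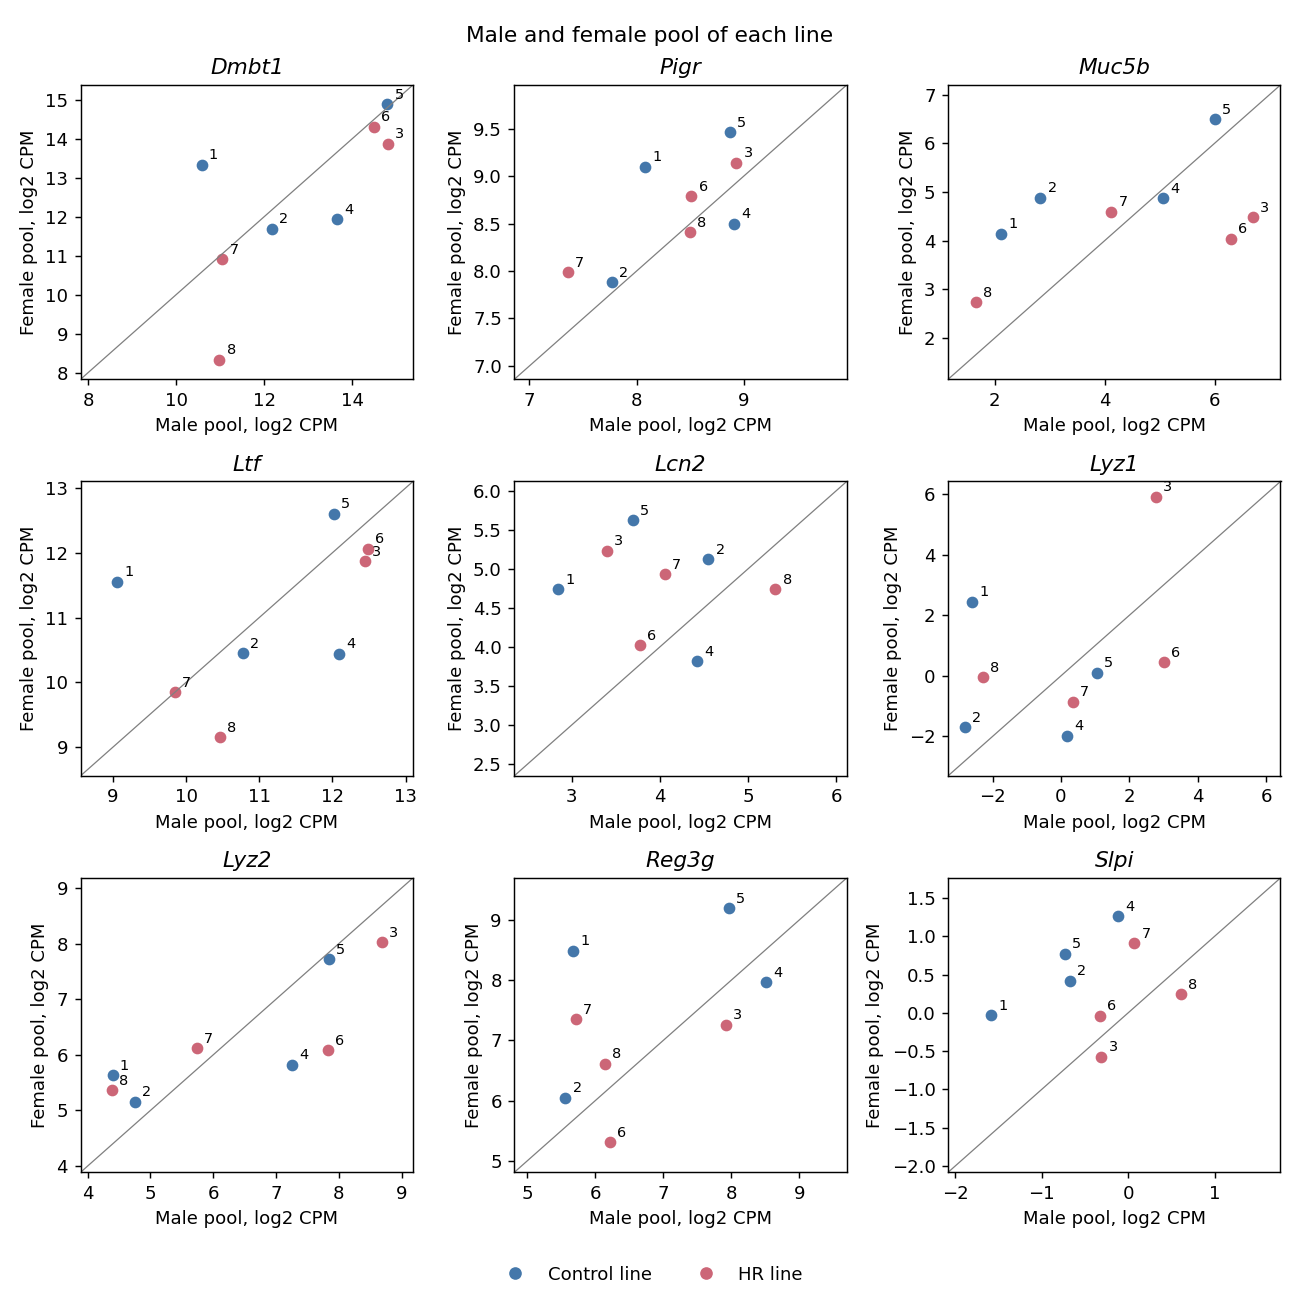
Log2 CPM of the female pool against that of the male pool of the same line, 1 panel for each gene, with line numbers beside the points and equality as a grey line. Dmbt1 and Lyz2 spread along the line of equality, Control line 1 lies above it in every panel, and Lcn2 and Slpi show little spread along it.

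Differences between lines of the same linetype were tested with edgeR's quasi-likelihood test on 16 libraries, with the male and female pools as the 2 samples of a line. Of 17181 genes tested, 27.7% were called at an adjusted p under 0.05, so differences in counts between lines were common. Only reads without a mismatch to GRCm38 were kept, and the part of sequence differences between lines in these counts was not tested. Among the 9 genes 3 were called: Lyz2 (adjusted p = 0.0101), Pigr (adjusted p = 0.0153) and Dmbt1 (adjusted p = 0.0175). A share of 3 in 9 is near that background. Ltf (adjusted p = 0.0556), Muc5b (adjusted p = 0.0729), Reg3g (adjusted p = 0.0886) and Lyz1 (adjusted p = 0.0888) did not pass, nor did Slpi (adjusted p = 0.212) or Lcn2 (adjusted p = 0.442). DESeq2 called 7 of the 9, all but Slpi and Lcn2. It called 7277 of 21766 genes (33.4%), and only 17968 of the 21766 had an adjusted p. With the summed gland level as a covariate, which was added after seeing the data, only Pigr remained called (adjusted p = 0.0277), with 7.59% of all genes called. In that fit adjusted p was 0.727 for Dmbt1 and 0.37 for Lyz2.

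Dmbt1 and Ltf moved with the summed gland level of the library, and Lcn2 and Slpi did not. That level is a plain sum of CPM, so abundant genes such as Obp2b (mean 19738 CPM) weigh most in it. After the sex means were removed, log2 CPM correlated over 16 libraries with the log2 summed gland level with r = 0.982 for Dmbt1, 0.936 for Ltf, 0.763 for Lyz2 and 0.753 for Muc5b. The values were 0.699 for Pigr, 0.55 for Lyz1 and 0.463 for Reg3g, and -0.126 for Slpi and -0.151 for Lcn2. Per 1000 CPM of gland genes, Dmbt1 lay between 131 and 385 CPM in all libraries, a 2.95-fold range in place of 94.2-fold. Ltf lay between 23 and 231 CPM on that scale, 10-fold, with its highest ratio well above its median of 68.1. Scaling widened the range of Lyz2 to 33.5-fold, Pigr to 53.2-fold, Reg3g to 136-fold, Slpi to 150-fold and Lcn2 to 165-fold. It narrowed that of Muc5b to 22.1-fold and that of Lyz1 to 260-fold. The gland level itself spanned 73.2-fold, so a range as narrow as that of Pigr (4.3-fold) had to widen. Widening alone thus does not show whether a gene followed the gland level.

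**Figure D3:**
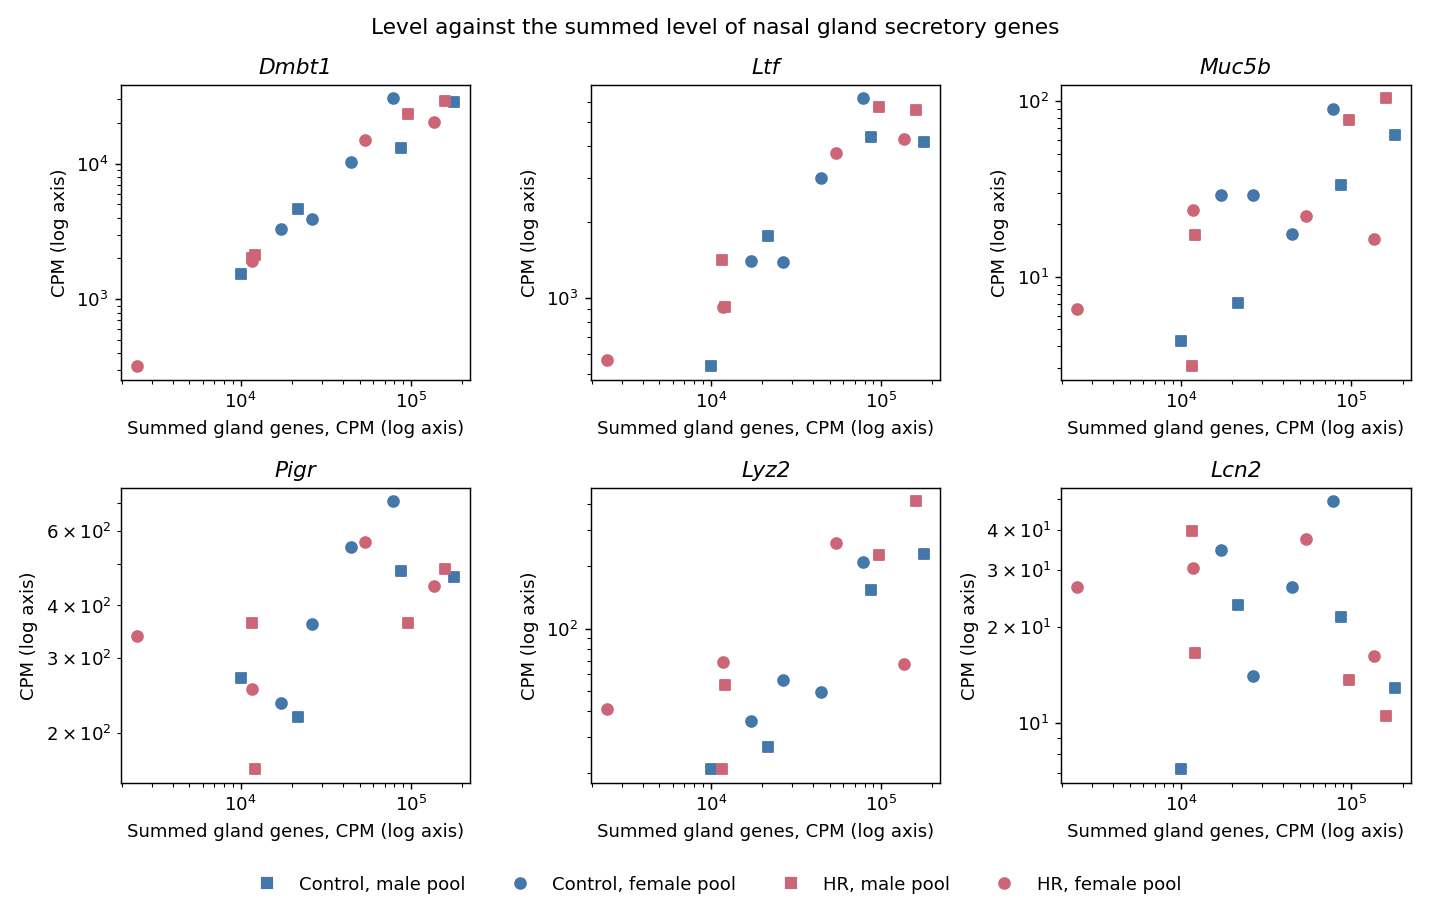
CPM of 6 of the genes against the summed CPM of 19 nasal gland secretory genes in the same library, both on log axes, with squares for male and circles for female pools. The gland sum spans 2456 to 179769 CPM, and Dmbt1 and Ltf rise with it. Both are highest in the Control line 5 female pool, at a gland sum of 78516 CPM. Lcn2 shows no trend (r = -0.151 on the log2 scale).

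The genes most like each of the 9 were sought among 14813 tested genes with a mean of at least 1 CPM, by r over the 16 libraries after the sex means were removed. Dmbt1 was most like Gata6, a transcription factor (r = 0.994), the odorant-binding protein gene Obp2b (r = 0.985) and Derl3, which acts in the disposal of misfolded secretory proteins (r = 0.984). Ltf was most like the coagulation factor gene F5 (r = 0.985), the deiodinase gene Dio1 (r = 0.977) and Aqp5, a water channel of serous gland cells (r = 0.968). Muc5b was most like the mucus peptide gene Tff2 (r = 0.967), Cd33 (r = 0.953) and Pkd1 (r = 0.918). Lyz2 was most like Bpifb1 (r = 0.956), which encodes a secreted airway protein, Cd33 (r = 0.951) and Vav1 (r = 0.944), the last a signalling protein of blood cells.
The other genes had weaker or less tissue-specific matches. Pigr was most like Selenbp1 (r = 0.931), Phkb (r = 0.927) and Pitpnm3 (r = 0.925), and Reg3g like 2310034G01Rik (r = 0.906), Riok1 (r = 0.894) and Cdc14a (r = 0.889). Lyz1 was most like the secretory gene Bpifb5 (r = 0.861), Cabs1 (r = 0.843) and Igsf6 (r = 0.798). Lcn2 was most like Pcp4l1 (r = 0.802), S100a8 (r = 0.786), a calcium-binding protein of neutrophils, and Slc8a1 (r = 0.771). Slpi was most like Mks1 (r = 0.889), Cbr3 (r = 0.767) and Gps2 (r = 0.754). Among themselves, Muc5b and Lyz2 had r = 0.874 and Lyz1 and Lyz2 r = 0.775, while Lcn2 had between -0.134 and 0.127 with all but Slpi (r = 0.368).

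The comparison of HR with Control lines asks whether selection for wheel running went with a difference in these genes. None of the 9 was called, where edgeR's quasi-likelihood test called 4 of 16507 genes (0.0242%) at an adjusted p under 0.05. DESeq2 called none of the 9 either. The adjusted p of all 9 was 0.9997, and 1 of the 9 (Lyz1) had an unadjusted p under 0.05, against 3.3% of all genes. The median log2 fold change of the 9 was -0.00, and that of all genes tested was 0.00.

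Dmbt1 averaged 11686 ± 11661 CPM in HR and 11941 ± 11803 CPM in Control lines (mean ± SD of line means, n = 4 each). Its log2 fold change, HR over Control, was -0.06 (SE 0.83). Ltf averaged 2885 ± 2232 CPM in HR and 2845 ± 1648 CPM in Control lines, with a log2 fold change of -0.00 (SE 0.55). In both genes the lines of a linetype differed from each other far more than the linetypes did. With an SE of 0.83 for Dmbt1, a change of that size, and one well above it, could not be told from 0. Pigr averaged 372 ± 131 CPM in HR and 411 ± 147 CPM in Control lines, with a log2 fold change of -0.13 (SE 0.26). Muc5b averaged 34 ± 26.1 and 34.4 ± 29.7 CPM, with a log2 fold change of -0.17 (SE 0.74). These SE, and those given below for HR against Control in the other genes over both sexes, treat the pools of a line as separate samples. On counts summed per line the SE was 1.01 for Dmbt1, 0.64 for Ltf, 0.32 for Pigr and 0.83 for Muc5b.

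Lyz1 had the largest difference of the 9, with 9.93 ± 16 CPM in HR and 1.27 ± 1.14 CPM in Control lines. Its log2 fold change was 2.77 (SE 1.12). Without the HR line 3 female library it was 0.90 (SE 1.10). In males alone, where that library has no part, it was 2.37 (SE 1.27). In females alone it was 3.10 (SE 1.70), and -0.99 without HR line 3. Of the 8 HR libraries 3 lay above all Control libraries, and the remaining 5 were within the Control range. Lyz2 averaged 144 ± 137 CPM in HR and 97.8 ± 88.1 CPM in Control lines (log2 fold change 0.52, SE 0.65), and without HR line 3 its fold change turned to -0.33.
Reg3g was the member with the largest negative value. It averaged 112 ± 61.4 CPM in HR and 247 ± 154 CPM in Control lines, with a log2 fold change of -1.09 (SE 0.53). Of 8 HR libraries 1 lay below all Control libraries and none above. The fold change stayed negative when each line was left out in turn, from -1.55 to -0.74. Lcn2 (23.9 ± 7.46 against 23.7 ± 7.39 CPM, log2 fold change 0.08, SE 0.33) and Slpi (1.06 ± 0.353 against 1.06 ± 0.419 CPM, log2 fold change 0.17, SE 0.32) had nearly equal means.

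The differences were also tested over the 8 line means of log2 CPM, 4 against 4, with an exact two-sided permutation test whose smallest possible p is 0.0286. None of the 9 reached p under 0.05. The differences, HR minus Control, were 1.83 for Lyz1 (exact permutation p = 0.257) and -0.86 for Reg3g (exact permutation p = 0.286). They were -0.54 for Dmbt1 (exact permutation p = 0.743), 0.45 for Lyz2 (exact permutation p = 0.686) and -0.23 for Muc5b (exact permutation p = 0.857). The other 4 genes differed by between -0.12 and 0.16, with exact permutation p from 0.657 to 0.943.

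**Figure D4:**
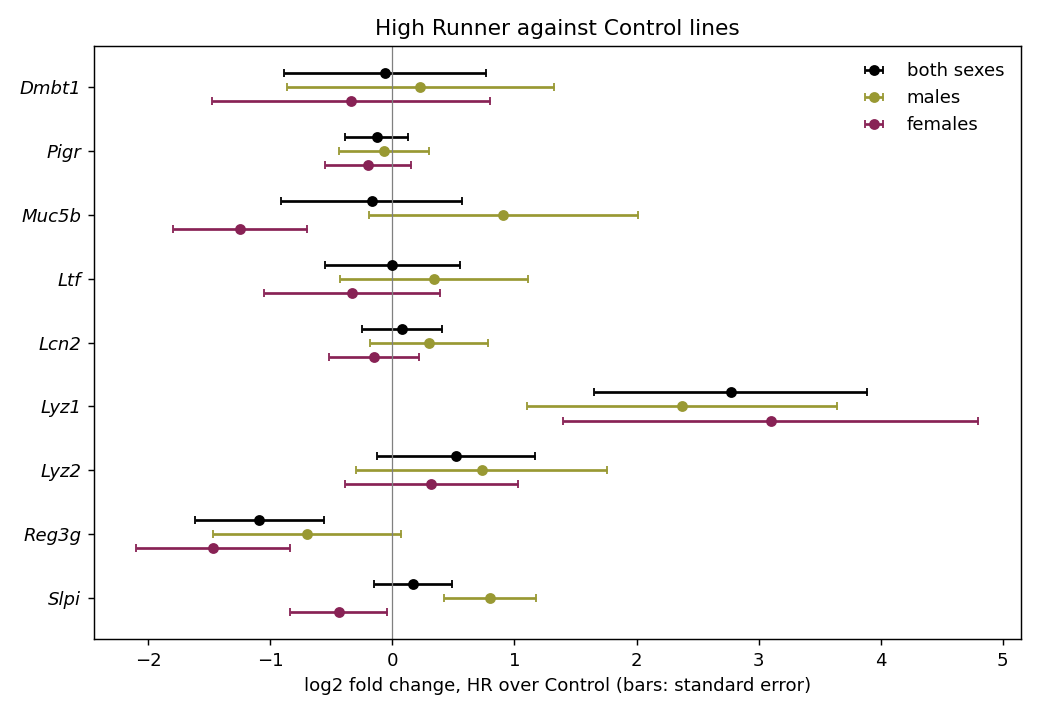
Log2 fold change of HR over Control for the 9 genes from edgeR, with standard errors as bars, over both sexes (black), in males (olive) and in females (purple). Lyz1 has the largest value over both sexes (2.77), with a wide error. Reg3g lies below 0 in all 3 fits, and Muc5b and Slpi have opposite signs in males and females.

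Within each sex, 4 HR lines were compared with 4 Control lines. None of the 9 genes was called in males, where none of 16361 genes was called (0%), or in females, where none of 16326 was called (0%). At an unadjusted p under 0.05 there were 184 genes in males and 316 in females, and DESeq2 called 13 and 6 genes. In females the log2 fold change of Reg3g was -1.47 (SE 0.63) and that of Muc5b -1.25 (SE 0.55). In males it was -0.70 (SE 0.77) for Reg3g and 0.91 (SE 1.10) for Muc5b. Within a sex a line is 1 library, and these values moved with single libraries. Without Control line 5 the female value of Muc5b was -0.55 and that of Reg3g -0.99, and the male value of Muc5b was 1.77. With a line left out, the male value of Muc5b ran from 0.29 (without HR line 3) to 1.77 and that of Reg3g from -1.45 (without HR line 3) to -0.08 (without Control line 4). Slpi had 0.80 (SE 0.38) in males and -0.44 (SE 0.40) in females.
The difference between these effects was tested as the interaction of sex and linetype. No gene of 16757 was called (0%), with 77 genes at an unadjusted p under 0.05 and none called by DESeq2. The interaction was -1.26 (SE 0.57) for Slpi and -2.15 (SE 1.33) for Muc5b on the log2 scale. All 4 Control lines had more Slpi in the female pool, by 1.09 to 1.55, and 2 of the 4 HR lines did. Because the interaction was not called, the effects in males and females were not shown to differ.

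Females and males were compared over 8 lines, where sex and sequencing run may coincide. Of 16507 genes 31 were called (0.188%), and none of them was among the 9. With line as a replicate block, 87 of 17181 genes were called (0.506%), and again none of the 9. Slpi was higher in the female pool in 6 of 8 lines, with a log2 difference, female over male, of 0.81 (SE 0.32, adjusted p = 0.516, and 0.185 with the block). Lcn2 was also higher in 6 of 8 lines, by 0.70 (SE 0.33, adjusted p = 0.617, and 0.273 with the block). For the other 7 genes the adjusted p was between 0.764 and 0.975.

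Other genes of mucosal defence and of the cell types that could carry these transcripts gave no call between HR and Control lines either. Of 28 other secreted host defence genes 17 were tested and none was called, with a median log2 fold change of -0.13. The most abundant were Wfdc18 (423 to 22005 RPKM), Wfdc2 (203 to 358 RPKM) and Bpifa1, an airway surface protein (14.7 to 738 RPKM), with log2 fold changes of -0.12 (SE 0.75), 0.13 (SE 0.14) and 1.05 (SE 0.72). Of 18 genes of mucins and mucus assembly 12 were tested and none was called (median -0.28). The most abundant were Galnt12, which starts the sugar chains of mucins (49 to 77 RPKM), Agr2, which helps fold mucins (32.9 to 94.3 RPKM), and Fcgbp (16.2 to 51.2 RPKM). These most abundant mucus genes varied far less between libraries than Muc5b did. Tff2, of the same list, was the gene most like Muc5b (r = 0.967). None of 19 tested regulators of the NF-kB and IL-17 pathways was called (median -0.00), with Stat3 (43.7 to 52.5 RPKM), Rela (21.3 to 28.6 RPKM) and Nfkbia (17.4 to 27.6 RPKM) the most abundant.
No gene of the lists of cell type markers was called between linetypes. The 18 tested nasal gland secretory genes had a median log2 fold change of 0.20, and 13 of them were called between lines within linetype (72.2%, against 27.7% of all genes). In that comparison 3 of 4 neuron markers (75%) and 5 of 11 macrophage markers (45.5%) were called too, and 1 of 9 tested neutrophil markers (11.1%). Obp2a (1026 to 143947 RPKM), Obp2b (582 to 82406 RPKM) and Lcn3 (428 to 54155 RPKM), all lipocalins, led the nasal gland secretory genes. The 6 tested neutrophil markers (median 0.13) were led by S100a8 (3.1 to 20.9 RPKM), S100a9 (3.26 to 17.6 RPKM) and Mmp9 (3.64 to 19.5 RPKM). The 11 macrophage markers (median -0.05) were led by C1qa (14.1 to 20.9 RPKM), Cd68 (8.98 to 16.4 RPKM) and C1qb (8.52 to 18 RPKM).
The 7 tested plasma cell markers (median 0.01) were led by Derl3 (1.79 to 66.5 RPKM), Sdc1 (8.93 to 21 RPKM) and Jchain, the joining chain of the antibodies that Pigr carries (2.04 to 29.4 RPKM). Jchain had a log2 fold change of -0.90 (SE 0.51). Derl3 was also among the 3 genes most like Dmbt1 (r = 0.984), and the part of plasma cells in its level was not tested. Of the listed plasma cell markers, the antibody genes Igha, Ighm and Igkc had no values. The 7 tested airway epithelium markers (median -0.49) were led by Cyp2f2 (30.6 to 249 RPKM), Krt5 (3.47 to 74.4 RPKM) and Ccdc39 (8.28 to 14.7 RPKM). The 4 tested neuron markers had a median of 0.00, and the 1 tested erythroid marker, Alas2, had 0.10 (SE 0.31).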

How the data were processed

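VNO RNA from pools of 3 mice was depleted of ribosomal RNA, made into directional libraries and sequenced as single reads of 75 nucleotides. The authors aligned reads to GRCm38 with STAR 2.6.1d, keeping uniquely aligned reads without mismatch. The deposited count tables hold unnormalized reads per gene, and the deposited RPKM tables hold values the authors computed with Cufflinks. The counting tool and annotation are not given in the sources used here. Each table holds 1 sex, and 8 libraries shared a run, so sex and run may coincide. For repeated gene names, 4 entries were left out of each table.

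Counts were tested with edgeR 4.0.16 (TMM, quasi-likelihood, filterByExpr with a minimum count of 10, sex and linetype in the model), with Benjamini-Hochberg adjustment at 0.05, in R 4.3.3. Log2 CPM used a prior count of 2, and permutation tests used scipy. Alternatives were DESeq2 1.42.0, limma 3.58.1 (voom with line as a random effect), other scalings and each line left out. The tests were first run on simulated data.

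The genes and lists were chosen with earlier results of these data known. All 9 genes were named, with the 3 most abundant genes of each list, every list gene called between linetypes, and the 3 genes most like each of the 9. Pools of a line were paired: deviations from group means correlated by 0.321 to 0.708 between the male and female pool of the same line over 16507 genes, and a fit with line as a replicate block called 87 genes between the sexes. Nothing in the labels beyond line and sex sets pools apart. The edgeR p-values of HR against Control measure the spread between pools, and the permutation p-values measure that between line means. A chi-square test of the counts gave 32.5 to 818 per degree of freedom for pairs of libraries of 1 group, so none was a copy of another.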

Additional observations from a re-analysis of the deposited data

How the results depend on the processing

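None of the 9 genes was called between linetypes, within either sex, between the sexes or for the interaction under the alternatives run, except that DESeq2 gave no p for Lyz1 in females. None reached p under 0.05 over line means on either RPKM scale. With a line left out the smallest possible permutation p is 0.0571, so those tests could not pass. Between linetypes, 30 genes were called by DESeq2, none (0) on counts summed per line, none (0) by voom with lines as random effects, and 1 to 17 by edgeR with a line left out. DESeq2 called 13 in males and 6 in females. With a line left out, edgeR called 0 to 1 in males and 0 to 2 in females, against 0 with all lines. Between the sexes 185 were called by DESeq2, and by edgeR 19 with no filter on low counts, 13 to 25 with a line left out, and 87 with line as a replicate block. Between lines DESeq2 called 7277 genes and 7 of the 9, and the gland covariate, chosen after seeing the data, left 1304 genes and 1 of the 9.

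The sign of HR against Control was not stable for 7 of the 9, and the cause was not tested. With a line left out, log2 fold changes ran from -0.58 to 0.91 (Dmbt1), -0.35 to 0.08 (Pigr), -0.53 to 0.55 (Muc5b), -0.40 to 0.46 (Ltf), -0.20 to 0.24 (Lcn2), -0.33 to 1.31 (Lyz2) and -0.07 to 0.44 (Slpi). Over line means they ran from -1.23 to 0.36 (Dmbt1), -0.37 to 0.14 (Pigr), -0.70 to 0.49 (Muc5b), -0.52 to 0.30 (Ltf), -0.11 to 0.26 (Lcn2), -0.16 to 1.02 (Lyz2) and -0.08 to 0.38 (Slpi). Counts summed per line gave 0.01 for Dmbt1, 0.16 for Muc5b and 0.06 for Ltf. Voom gave 0.13 for Muc5b. The gland covariate gave 0.34 for Muc5b and 0.16 for Ltf. The number in brackets in the labels did not pair HR with Control pools (correlations from -0.583 to 0.12), and as a replicate block it called 4 genes and none of the 9.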
